A study of Mus musculus with 2 samples.

Results

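The acute phase proteins are secreted or signaling proteins whose genes respond to inflammation, and 10 genes stood for them here, chosen by symbol from the 32285 genes of each count matrix: Saa1, Saa2, Saa3, Orm1, Orm2, Hp, Lcn2, Crp, Itih4 and Socs3. All 10 were present in both matrices and all passed the filter used below, a mean of at least 10 CPM (UMIs per 1000000 UMIs) over the WT and HKO hepatocyte barcodes. The study asked how loss of the microRNA miR-33 in hepatocytes acts on the liver in diet-induced steatohepatitis. It made 1 droplet library of 3′ transcript ends from WT livers and 1 from miR-33 HKO livers, in which loxP-flanked miR-33 is removed by Cre under the albumin promoter, a promoter that can also be active in cholangiocytes, whose recombination was not tested. Each library pooled 3 livers of male littermates fed CD-HFD, a diet rich in fat and lacking choline, for 6 months from 8 weeks of age, and perfused hepatocytes were mixed with sorted nonparenchymal cells before loading. With 1 library per genotype there is no replicate, so no p-value is given, and every interval is a 95% interval for counting error only. The deleted microRNA has no row in the matrices, so the libraries were taken as labeled.

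In inflammation, IL-6 and its relatives bind receptors that share the subunit gp130 on hepatocytes and activate STAT3, while IL-1 and TNF act through NF-κB, and C/EBP factors join them on the promoters of acute phase genes. The liver then secretes serum amyloid A, orosomucoid, haptoglobin and other plasma proteins, and SOCS3, itself induced by STAT3, shuts the receptor off again. In mice serum amyloid A is the major acute phase reactant, whereas C-reactive protein changes little.

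The WT library held 30078 barcodes and 130451427 UMIs, and the HKO library 20000 barcodes and 52563185 UMIs. Hepatocyte barcodes, those outside the clusters with at least 3 markers of another cell class and with at least 5000 UMIs, numbered 1858 in WT (median 20292 UMIs) and 1563 in HKO (median 10720 UMIs). The hepatocyte markers Alb, Apoa1, Apoc3, Ttr, Serpina1c and Fabp1 summed to 78518 CPM in the former and 67353 CPM in the latter. Barcodes of the same profile but little depth, 19977 in WT and 10058 in HKO, were taken as free RNA, the transcripts set loose by lysed cells. The 10 genes made up 0.596% of the hepatocyte UMIs of WT and 0.476% of those of HKO. Free RNA held the members too: Saa1 stood at 239 CPM in free RNA of WT and 310 CPM in that of HKO. In such sums over pooled livers, fewer expressing cells and less RNA per cell cannot be told apart in the summed levels.

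Between the genotypes, Lcn2 was the only one of the 10 genes at least 1.5-fold higher in HKO hepatocyte barcodes and Hp the only one at least 1.5-fold lower. Of 7074 genes that passed the same filter, 2.47% passed 1.5-fold toward HKO and 4.47% toward WT, and the median gene had an HKO over WT ratio of 0.996. The other members lay within 1.5-fold, with Saa1, Saa2, Orm1 and Orm2 on the HKO side and Saa3 and Itih4 on the WT side, though Saa3 changed sides in the deepest barcodes. The median log2 ratio over the 10 genes was 0.12.

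**Figure D1:**
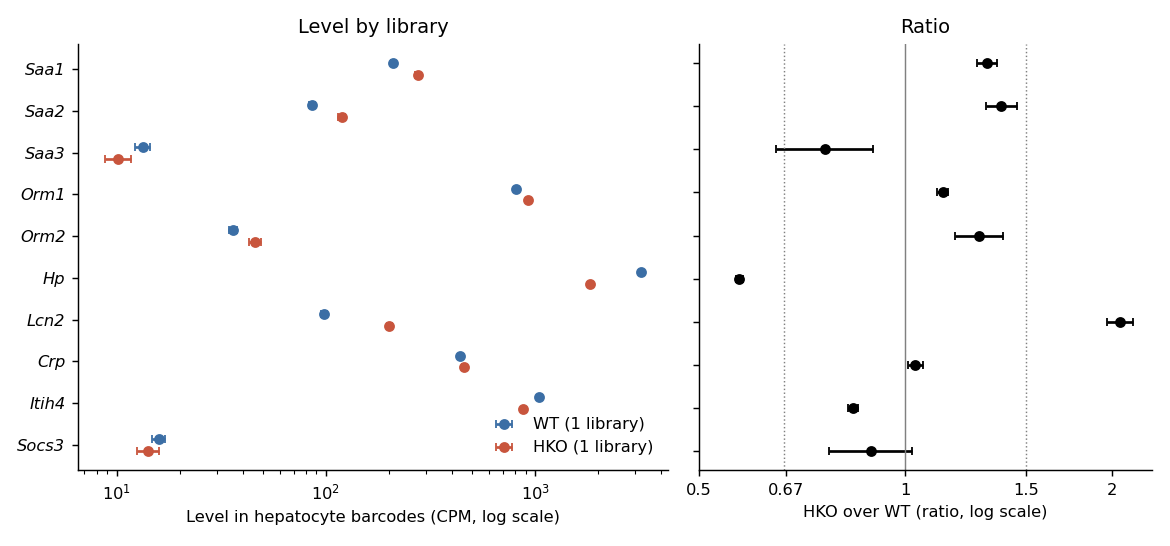
Levels of the 10 genes in hepatocyte barcodes. Left, CPM (log scale) in the WT library (blue) and the HKO library (red); right, HKO over WT ratio (log scale), with dotted lines at 1.5-fold in either direction. Bars are 95% counting intervals of 1 library each, and only Lcn2 and Hp lie outside the dotted lines.

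Serum amyloid A proteins travel on high-density lipoprotein during inflammation. Saa1 and Saa2, which the liver makes, and Saa3, which macrophages and fat also make, lie in 1 cluster on chromosome 7 (GRCm38, GENCODE M21), with Saa1 at chr7:46740497-46742980, Saa2 at chr7:46751790-46754313 and Saa3 at chr7:46711998-46715700. Saa1 and Saa2 are transcribed away from each other. Their windows of 250 bases upstream of the start, from RefSeq (GRCm38.p6), are printed here because the ratios of the pair between genotypes followed each other across the depth groups given below. Capitals mark matches of TTNNGNAA, the core read by C/EBP factors, on either strand.
Saa1: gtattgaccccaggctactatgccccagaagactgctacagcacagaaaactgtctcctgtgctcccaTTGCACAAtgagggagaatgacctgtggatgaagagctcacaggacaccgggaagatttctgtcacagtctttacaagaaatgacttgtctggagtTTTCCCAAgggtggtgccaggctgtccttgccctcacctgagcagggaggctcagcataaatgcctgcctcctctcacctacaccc
Saa2: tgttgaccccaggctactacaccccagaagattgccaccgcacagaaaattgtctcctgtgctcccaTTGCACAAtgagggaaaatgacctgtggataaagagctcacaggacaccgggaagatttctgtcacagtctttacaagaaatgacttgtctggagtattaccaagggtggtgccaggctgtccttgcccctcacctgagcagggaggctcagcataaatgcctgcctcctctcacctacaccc
The Saa1 window is chr7:46742981-46743230 on the minus strand and that of Saa2 is chr7:46751583-46751832 on the plus strand. They were identical in 238 of 251 aligned positions, or 94.8%, against 48.5% for Saa1 and Saa3. Both hold TTGCACAA, 182 bases before the start in Saa1 and 183 in Saa2. Saa1 alone has a second match, TTTCCCAA, at 86 bases. The core occurs in 36.8% of all 32851 promoter windows of this length, so its presence is common. No window of the 3 Saa genes held the STAT core TTCNNNGAA (7.02% of all windows) or the NF-κB core GGANTTNCC (3.15%). The mature Saa1 and Saa2 transcripts were 93.9% identical, yet none of the 311 windows of 90 bases in the last 400 bases of one occurred whole in the other, so reads of that length could be told apart.

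Saa1 was at 208 CPM in WT and at 274 CPM in HKO hepatocyte barcodes, with a ratio of 1.32 (1.27 to 1.36). Saa2 was at 85.9 CPM in WT and at 119 CPM in HKO, with a ratio of 1.38 (1.31 to 1.45). The neighboring Saa3 went the other way, at 13.3 CPM in WT and at 10.1 CPM in HKO, with a ratio of 0.763 (0.648 to 0.897). A single HKO barcode held 37 of its 199 Saa3 UMIs, or 18.6%. By depth, the Saa3 ratio was 0.608 and 0.993 in the shallower groups, with intervals that include 1, and 1.42 (1.15 to 1.75) at 20000 UMIs or more, where its direction turned. The excess of Saa1 and Saa2 in HKO depended on how deep the barcodes were. In barcodes of 5000 to 10000 UMIs the ratio of Saa1 was 0.9404 (0.844 to 1.05), with an interval that includes 1. It was 2.35 (2.16 to 2.55) at 10000 to 20000 UMIs and 1.75 (1.67 to 1.83) at 20000 UMIs or more. Saa2 had ratios of 0.911, 2.67 and 1.93 in the same order. In WT the level of Saa1 was lowest in the middle group, at 176, 112 and 229 CPM, while in HKO it was 165, 263 and 400 CPM from the shallowest to the deepest. The commonest depth of a barcode, mostly free RNA, lay at 2571 UMIs for the WT library and 811 for the HKO library, so the shallowest WT hepatocyte barcodes lay nearer to free RNA. With free RNA subtracted, the ratios over all depths were 1.325 for Saa1 and 1.401 for Saa2. The part of free RNA in the ratios by depth was not tested.

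**Figure D2:**
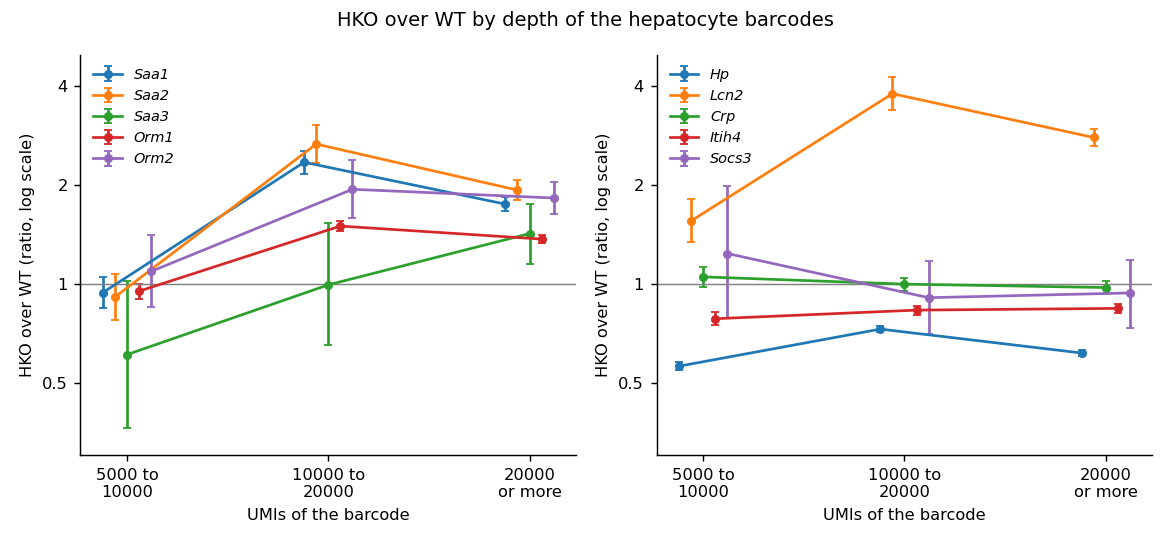
HKO over WT ratio (log scale) of each gene in hepatocyte barcodes of 5000 to 10000, 10000 to 20000 and 20000 or more UMIs. Bars are 95% counting intervals of 1 library per genotype. Saa1, Saa2, Orm2 and Lcn2 have their highest ratio in the middle group of depths, while Hp stays below 1 and Crp close to 1 in all 3.

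Orosomucoids bind drugs and lipids in plasma and dampen inflammation. Orm1 (chr4:63344560-63348163) and Orm2 (chr4:63362449-63365878) are neighbors on chromosome 4. Orm1 was at 815 CPM in WT and at 924 CPM in HKO, with a ratio of 1.13 (1.11 to 1.15). Orm2 was at 35.9 CPM in WT and at 46.0 CPM in HKO, with a ratio of 1.28 (1.18 to 1.39). Both orosomucoids therefore stood higher in HKO beyond counting error, and both shared the depth pattern of the Saa pair: Orm1 had ratios of 0.950, 1.5 and 1.37 and Orm2 of 1.09, 1.94 and 1.83 from the shallowest to the deepest barcodes. Their transcripts are 91.0% identical and 21.5% of the windows of 90 bases near the 3′ end occur in both, so UMIs could be lost or assigned to either gene, and the Orm1 and Orm2 values are uncertain to that extent.

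Hp encodes haptoglobin, which binds free hemoglobin. Hp (chr8:109575128-109579172) was at 3203 CPM in WT and at 1835 CPM in HKO hepatocyte barcodes, with a ratio of 0.573 (0.566 to 0.580). In contrast to the Saa pair, Hp was lower in HKO at every depth, with ratios of 0.561, 0.728 and 0.615. In free RNA the gap was smaller, at 3166 CPM in WT and at 2584 CPM in HKO. With free RNA subtracted from every hepatocyte barcode the Hp ratio was 0.552.

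Lcn2 encodes lipocalin 2, which captures bacterial iron carriers and is made by injured hepatocytes as well as by neutrophils and epithelia. Lcn2 (chr2:32384633-32388252) was at 97.8 CPM in WT and at 201 CPM in HKO, with a ratio of 2.06 (1.97 to 2.15). It was higher in HKO in each depth group, by 1.56-, 3.80- and 2.79-fold. Markers of other cell classes were also counted in hepatocyte barcodes, and their part in the Lcn2 level was not tested. The 6 cholangiocyte markers summed to 98.4 CPM in WT and 61.8 CPM in HKO, with Krt7 at 0 in both libraries, and the 7 neutrophil markers summed to 1.35 CPM in WT and 1.07 CPM in HKO, where Cxcr2 and Mmp9 were at 0. Macrophage markers, 9 of 9 detected, summed to 21.7 CPM in WT and 12.99 CPM in HKO. Monocyte and dendritic markers summed to 4.22 and 5.04 CPM, with 11 of 11 detected in WT and 8 of 11 in HKO, and erythroid markers to 75.8 and 82.3 CPM.

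Crp encodes C-reactive protein, a pentraxin that marks damaged membranes for complement. Crp (chr1:172698055-172833031) was at 440 CPM in WT and at 455 CPM in HKO, with a ratio of 1.04 (1.01 to 1.06), and stayed between 0.974 and 1.05 in the 3 depth groups. Itih4, a plasma protease inhibitor heavy chain (chr14:30886476-30902353), was at 1046 CPM in WT and at 878 CPM in HKO, with a ratio of 0.839 (0.825 to 0.854). The upstream windows of Lcn2, which differed most, and of Crp, which differed least, are printed side by side, again with the C/EBP core in capitals.
Lcn2: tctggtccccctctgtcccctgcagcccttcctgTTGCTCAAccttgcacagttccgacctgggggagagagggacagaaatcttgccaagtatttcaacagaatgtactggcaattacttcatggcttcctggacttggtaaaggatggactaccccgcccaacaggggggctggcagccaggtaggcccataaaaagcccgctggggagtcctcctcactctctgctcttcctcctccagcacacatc
Crp: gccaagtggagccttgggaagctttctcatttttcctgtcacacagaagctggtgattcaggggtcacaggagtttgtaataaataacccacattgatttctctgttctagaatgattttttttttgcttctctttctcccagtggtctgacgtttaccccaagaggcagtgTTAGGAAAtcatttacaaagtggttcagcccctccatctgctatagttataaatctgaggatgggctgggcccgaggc
The windows are chr2:32387740-32387989 on the minus strand for Lcn2 and chr1:172697806-172698055 on the plus strand for Crp. Distances are from the RefSeq start, which differs from the GENCODE gene border for Saa2, Saa3, Lcn2, Crp and Socs3. Each holds 1 match, TTGCTCAA at 216 bases before the start of Lcn2 and TTAGGAAA at 78 bases before that of Crp. Of the 8 members with a window in the table, only Itih4 and Socs3 held the STAT core, as TTCCGAGAA at 51 bases and TTCTTAGAA at 154 bases, and none held the NF-κB core.

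Socs3 encodes the inhibitor that closes the gp130 receptor to further signaling. Socs3 (chr11:117966079-117970047) was at 15.9 CPM in WT and at 14.2 CPM in HKO hepatocyte barcodes, with a ratio of 0.892 (0.775 to 1.03), a difference within counting error. It had 753 UMIs in WT and 278 in HKO, so a difference smaller than this interval could not be detected at this depth.

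Other genes of the response were read in the same barcodes from lists of related genes. Of 18 further positive acute phase genes, none was at least 1.5-fold higher in HKO and 3 were at least 1.5-fold lower, with a median log2 ratio of -0.22. Those 3 were the complement components C4b (382 and 226 CPM in WT and HKO, ratio 0.590) and Cfb (494 and 272 CPM, 0.550), and the orosomucoid paralog Orm3 (16.3 and 8.61 CPM, 0.529). None of 7 negative acute phase genes, whose products fall in inflammation, passed 1.5-fold in either direction (median log2 ratio -0.26). On the signaling side, 4 of 5 receptors of the IL-6 family were measured and none passed 1.5-fold: Il6ra was at 61.4 CPM in WT and at 59.1 CPM in HKO, and Il6st, which encodes gp130, at 40.3 and 39.4 CPM. Osmr, the oncostatin M receptor, was at 0.506 CPM in WT and at 0.509 CPM in HKO. Stat3 was at 127 CPM in WT and at 140 CPM in HKO, with a ratio of 1.10 (1.05 to 1.15).

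None of the 4 measured JAK and STAT genes, of the 2 measured inhibitors of that pathway or of the 5 measured NF-κB genes passed 1.5-fold, with median log2 ratios of 0.03, 0.10 and -0.20. Among transcription factors, receptors of TNF and early response genes, those past 1.5-fold were all lower in HKO. The bZIP factor Cebpb was at 321 CPM in WT and at 212 CPM in HKO (ratio 0.661), the 1 of 5 measured acute phase transcription factors past 1.5-fold, and Tnfrsf1b, the second TNF receptor, was at 18.6 and 11.4 CPM (0.612), the 1 of 5 measured IL-1 and TNF receptors and adaptors past it. Of 11 immediate early genes, 5 were at least 1.5-fold lower in HKO: Atf3 (ratio 0.654), Ier2 (0.630), Dusp1 (0.516), Nr4a1 (0.5001) and Zfp36 (0.499). Early genes are known to respond to tissue dissociation as well as to cytokines, and the part of dissociation in the levels of the members was not tested.

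How the members were shared out among hepatocytes was read after thinning every hepatocyte barcode to 5000 UMIs, so that depth was equal. The share of a gene's UMIs held by its highest barcodes also depends on its mean count, and sparse genes reach high shares without any spread beyond counting. The 10% of barcodes with most of each gene held 60.8% of all Saa1 UMIs in WT and 72.6% in HKO. For Saa2 that share was 81.2% in WT and 92.3% in HKO. The top 10% held 65.4% of Lcn2 in WT and 67.9% in HKO, against 23.1% and 27.7% of Hp. Orm2 reached 87.0% in WT and 84.2% in HKO, and all UMIs of Saa3 and of Socs3 lay in such a share of barcodes.

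**Figure D3:**
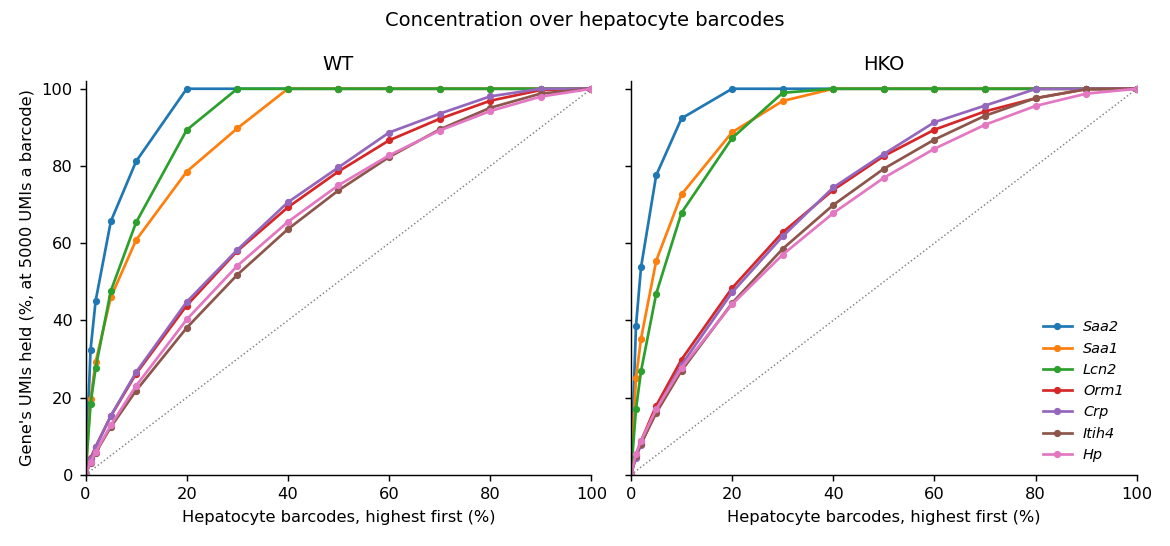
Share of each gene's UMIs (vertical axis, %) held by the hepatocyte barcodes with most of it (horizontal axis, %, highest first), after thinning to 5000 UMIs a barcode; left WT, right HKO. The dotted line is an even spread. Saa2, Saa1 and Lcn2 run far above Orm1, Crp, Itih4 and Hp in both libraries.

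For Saa1 the median barcode had 0 UMIs in both libraries, and the highest had 44 in WT and 78 in HKO. Barcodes with 5 or more Saa1 UMIs made up 3.71% in WT and 6.85% in HKO. None of the 112 T and NK barcodes of WT (median 7090 UMIs) or the 28 of HKO (median 5844 UMIs) that could be thinned to the same depth had so many. In WT a single UMI was no mark of expression: 39.1% of hepatocyte barcodes had at least 1 Saa1 UMI (36.9 to 41.3%), but so did 36.6% of T and NK barcodes (27.7 to 46.2%), which should lack it. In HKO the share was 33.9% (31.6 to 36.3%) of hepatocyte barcodes and 14.3% (4.03 to 32.7%) of T and NK barcodes. The WT shares with a Saa2, Saa3, Orm2 or Hp UMI, at 16.9%, 3.82%, 11.9% and 99.6%, likewise lay within the intervals of those of T and NK barcodes, at 22.3%, 2.68%, 7.14% and 99.1%. In HKO, Saa2, Saa3 and Orm2, at 13.8%, 2.18% and 13.5%, also lay within the T and NK intervals, each of 0.0904 to 18.4%. For Socs3, which T and NK barcodes held above free RNA, they are no background. Before thinning, 66.7% of WT and 46.8% of HKO hepatocyte barcodes had a Saa1 UMI.

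Lcn2 and Hp differed between genotypes in opposite directions. Barcodes with 5 or more Lcn2 UMIs were 0.969% of WT and 5.25% of HKO, while the share with at least 1 was 24.5% (22.6 to 26.5%) in WT and 30.9% (28.6 to 33.3%) in HKO, beside T and NK shares of 11.6% in WT and 3.57% in HKO. The coefficient of variation over barcodes was similar, at 258% in WT and 244% in HKO, as was the share of the top 10% given above. Hp was found in 99.6% of WT and 97.8% of HKO barcodes, beside 99.1% and 82.1% of T and NK barcodes, with a median of 12 UMIs in WT and 7 in HKO and 10th and 90th percentiles of 4.7 and 28 in WT and of 2 and 17 in HKO. The median and both of these percentiles of Hp were thus lower in HKO, while its highest barcode had 63 UMIs in WT and 84 in HKO. Orm1 had a median of 3 UMIs in both libraries, and Crp a median of 2.

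The variance over the mean, which is 1 for counts with no spread beyond counting, had a median of 1.08 over the same 7074 genes in WT and 1.10 in HKO. Saa1 reached 5.72 in WT and 13.4 in HKO, and Saa2 6.29 and 13.3. They ranked 55 and 49 among these genes in WT and 36 and 37 in HKO. Hp ranked 53 in WT and 85 in HKO, at 5.93 and 5.74, and Lcn2 179 and 106, at 2.79 and 5.05. Socs3, at 1.18 in WT and 1.16 in HKO, ranked 2004 and 2619. With a mean of 0.0732 UMIs in WT and 0.0627 in HKO after thinning, its spread could hardly be measured.

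Across hepatocyte barcodes of 1 library and equal depth, the Saa pair went together with Lcn2 and the orosomucoids. The Pearson correlation of log counts between Saa1 and Saa2 was 0.53 in WT and 0.70 in HKO. Saa1 and Lcn2 had 0.32 in WT and 0.59 in HKO, and Saa1 and Orm1 0.27 and 0.43. Saa1 and Hp had 0.29 and 0.31, so haptoglobin joined the group among barcodes of a library although its difference between genotypes had the other sign. Crp had correlations with the other members of -0.12 to 0.04 in WT and of -0.03 to 0.25 in HKO, the highest with Itih4. Socs3 had -0.07 to 0.04 in WT and -0.07 to 0.02 in HKO. These are descriptions over 1858 and 1563 barcodes that share a library, its free RNA and its depth after thinning.

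Outside the members, the 5 genes most like the summed Saa1 and Saa2 counts, ranked by the lower of the correlations of the libraries, were Mt1 (0.25 in WT and 0.34 in HKO), Wfdc21 (0.26 and 0.24), Hpx (0.23 and 0.31), Apoc2 (0.24 and 0.22) and Apcs (0.21 and 0.30). Metallothionein 1 buffers zinc, hemopexin binds heme, and Apcs encodes serum amyloid P, a major acute phase protein of mice. The genes compared numbered 4845 in WT and 4809 in HKO, with a median correlation of -0.00 in WT and -0.01 in HKO. Among these neighbors Mt1 was at 242 CPM in WT and at 881 CPM in HKO hepatocyte barcodes, 3.65-fold higher, and Hpx at 3898 and 2702 CPM, with a ratio of 0.693.

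Hepatocytes differ by their place between portal and central vein, and barcodes of each library were ranked by a score of 11 periportal against 11 pericentral genes and divided into 3 zones of equal size, with 369 of 1858 WT and 335 of 1563 HKO barcodes within 0.1 SD of a border. The genes of the score differed between the zones as its construction requires: Glul, which marks hepatocytes around the central vein, had a periportal over pericentral ratio of 0.0590 in WT and 0.0106 in HKO, and Hal, a periportal enzyme, of 3.75 and 8.06. The zones were cut by rank within each library, so a zone need not hold the same place in WT and HKO. Pericentral Glul, for instance, was at 421 CPM in WT and at 1203 CPM in HKO. The HKO over WT ratios by zone given below carry that limit. In WT, 5 of the 10 members were at least 1.5-fold higher in the pericentral zone (5.60% of 7123 genes), namely Saa1, Saa2, Saa3, Orm2 and Lcn2, and 1, Socs3, at least 1.5-fold higher in the periportal zone (4.00%). In HKO, 2, Saa3 and Orm2, were at least 1.5-fold higher pericentrally (10.6% of 7031 genes) and 3, Orm1, Lcn2 and Itih4, periportally (3.31%). The lists of members differed, and the difference between the libraries was not tested.

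**Figure D4:**
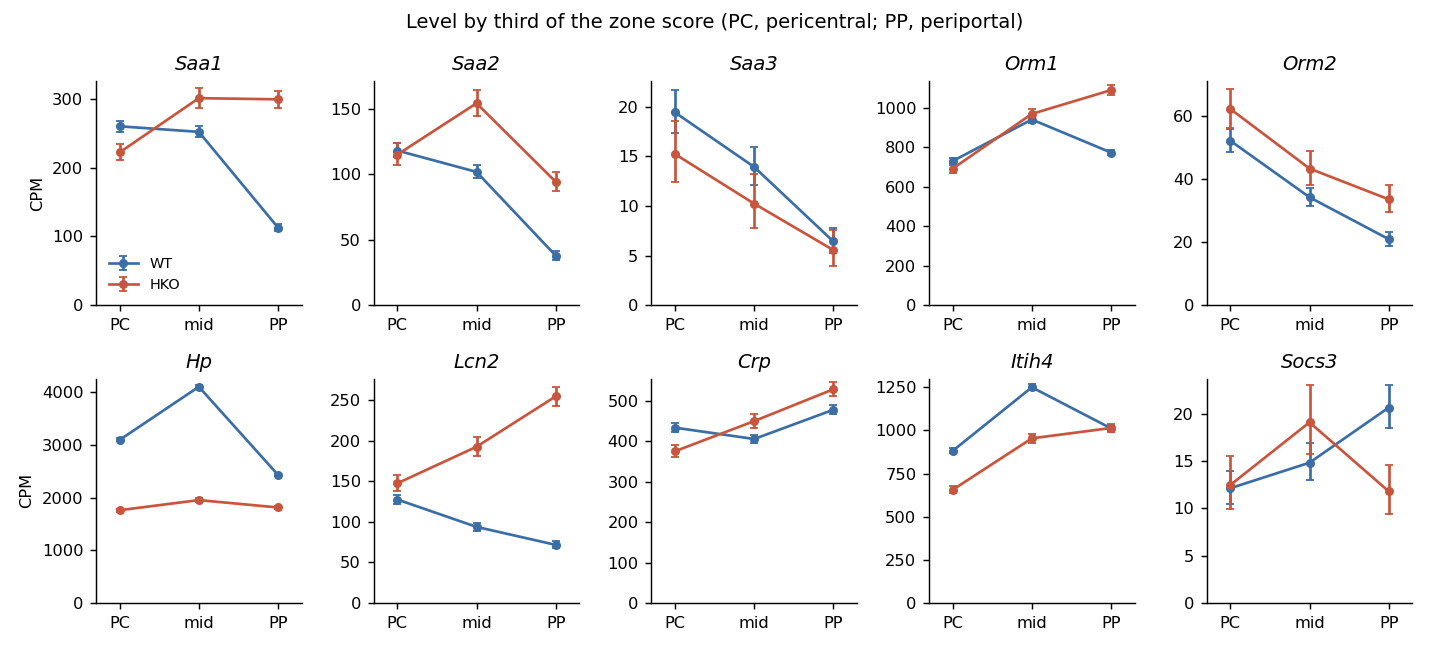
Level (CPM, linear axis from 0) of each gene in the pericentral (PC), mid and periportal (PP) zone of the hepatocyte barcodes of WT (blue) and HKO (red). Bars are 95% counting intervals within 1 library. Lcn2 runs downward toward the portal side in WT and upward in HKO, Saa1 is lowest in the periportal zone of WT and in the pericentral zone of HKO, and Saa3 and Orm2 run downward in both.

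Saa1 was at 260, 252 and 113 CPM in the pericentral, mid and periportal zone of WT, a periportal over pericentral ratio of 0.434 (0.410 to 0.459). In HKO it was at 222, 301 and 299 CPM, with a ratio of 1.35 (1.26 to 1.44). Summed over all depths, the WT and HKO levels of Saa1 were thus nearest on the pericentral side, where HKO over WT was 0.854, and farthest apart on the portal side, where it was 2.65 (2.49 to 2.82). The ratio below 1 was not seen within a depth group. From the shallowest to the deepest barcodes, pericentral Saa1 was at 182.5, 117.4 and 291.7 CPM in WT and at 183.4, 133.3 and 448.8 CPM in HKO. The periportal excess within HKO was beyond counting error in 1 of 3 depth groups, barcodes of 10000 to 20000 UMIs, with a periportal over pericentral ratio of 2.49 (2.22 to 2.79). It was 1.16 (0.987 to 1.37) at 5000 to 10000 UMIs, and the direction turned for the 59 pericentral and 101 periportal barcodes of 20000 UMIs or more, where it was 0.657 (0.591 to 0.730). In WT the ratio was 0.829 and 0.859 in the shallower groups, with intervals that include 1, and 0.386 (0.363 to 0.410) in the deepest. Saa2 was at 118, 101.8 and 37.9 CPM in WT, with a ratio of 0.321 (0.292 to 0.351), and at 115, 154 and 94.2 CPM in HKO, with a ratio of 0.820 (0.738 to 0.910). By depth, the WT ratio of Saa2 was 0.539, 0.7575 (0.562 to 1.02) and 0.282 from the shallowest to the deepest barcodes. The direction of Saa2 in HKO was not stable: its ratio was 0.771, 1.80 and 0.325 from the shallowest to the deepest barcodes, 1.65 between the outer 10% of barcodes on each side, 1.09 with zones from thinned barcodes and 1.04 with a score from 4 genes. In the middle and the deepest group both genes of the pair had the same direction in HKO.

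Lcn2 was at 128, 93.8 and 71.6 CPM from pericentral to periportal in WT, with a ratio of 0.561 (0.521 to 0.604). In HKO it was at 148, 193 and 255 CPM, with a ratio of 1.73 (1.597 to 1.87), and the HKO over WT ratio, summed over all depths, went from 1.16 in the pericentral to 3.56 in the periportal zone. The pericentral gap was wider within each depth group. From the shallowest to the deepest barcodes, pericentral Lcn2 was at 83.8, 46.9 and 145.6 CPM in WT and at 138.3, 113.3 and 228.6 CPM in HKO. The HKO slope kept its direction in all 3 depth groups, at 1.33, 2.09 and 1.38. The WT slope was seen at 20000 UMIs or more, at 0.521 (0.481 to 0.564), while the shallower groups gave 1.06 and 0.952 with intervals around 1. Median depth differed somewhat between the zones, at 21428, 17683 and 21479 UMIs in WT and 10472, 8923 and 12764 UMIs in HKO from pericentral to periportal.

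Saa3 and Orm2 were higher in the pericentral zone in both libraries. Saa3 went from 19.4 to 6.43 CPM in WT and from 15.2 to 5.56 CPM in HKO, and Orm2 from 52.2 to 21.0 CPM in WT and from 62.3 to 33.6 CPM in HKO. Their ratios were 0.331 and 0.365 for Saa3 and 0.402 and 0.539 for Orm2. The slope of Saa3 was beyond counting error at 20000 UMIs or more, at 0.297 in WT and 0.0930 in HKO, and not in the shallower groups of either library. That of Orm2 was beyond it in all groups except WT barcodes of 5000 to 10000 UMIs, at 0.831 (0.494 to 1.38). Between the outer 10% of barcodes on each side of HKO, Orm2 was at 0.751 and no longer past 1.5-fold, while Socs3 was, at 0.653. Orm1 differed from its neighbor: it was at 731, 942 and 774 CPM in WT and at 693, 970 and 1091 CPM in HKO, with ratios of 1.06 and 1.58. The orosomucoid pair therefore did not share a zonal pattern, within the uncertainty of their shared sequence.

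Hp was highest in the mid zone of WT, at 3094, 4102 and 2430 CPM, and nearly flat in HKO, at 1759, 1951 and 1811 CPM. The lower level of Hp in HKO was present in each zone, with HKO over WT ratios of 0.568, 0.476 and 0.745. Itih4 had ratios toward the portal side of 1.15 in WT and 1.55 in HKO, and had close levels in the periportal zone of both, 1012 and 1014 CPM. Crp leaned to the portal side in both, by 1.10-fold in WT and 1.41-fold in HKO. In HKO its ratio fell with depth, at 1.73, 1.48 and 1.12 from the shallowest to the deepest barcodes. Socs3 went from 12.1 to 20.7 CPM in WT, with a ratio of 1.70 (1.42 to 2.05), and from 12.5 to 11.8 CPM in HKO, with a ratio of 0.946 with an interval of 0.691 to 1.297. By depth, the WT ratio of Socs3 was 1.22 and 1.42 in the shallower groups, with intervals that include 1, and 1.79 (1.46 to 2.20) in the deepest. It was under 1.5 with the outer 10% of barcodes on each side (1.485) and with a score from 4 genes (1.44).

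In the other cell classes most members were found only at the level that free RNA gives. Expected UMIs were taken from the free RNA of the library, scaled so that Alb matched, and a gene was counted as above free RNA in a class of at least 20 barcodes when it had at least 10 UMIs and at least 2-fold the expected number. Saa1, Saa2, Orm1, Orm2, Hp and Itih4 passed in none of the 7 classes of WT or the 9 of HKO. Saa1, for instance, had 0.415 to 0.978 times the expected UMIs in WT classes and 0.559 to 1.499 times in HKO classes. Socs3, Lcn2, Crp and Saa3 made up the 4 pairs of gene and class that passed in WT and the 8 in HKO.

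**Figure D5:**
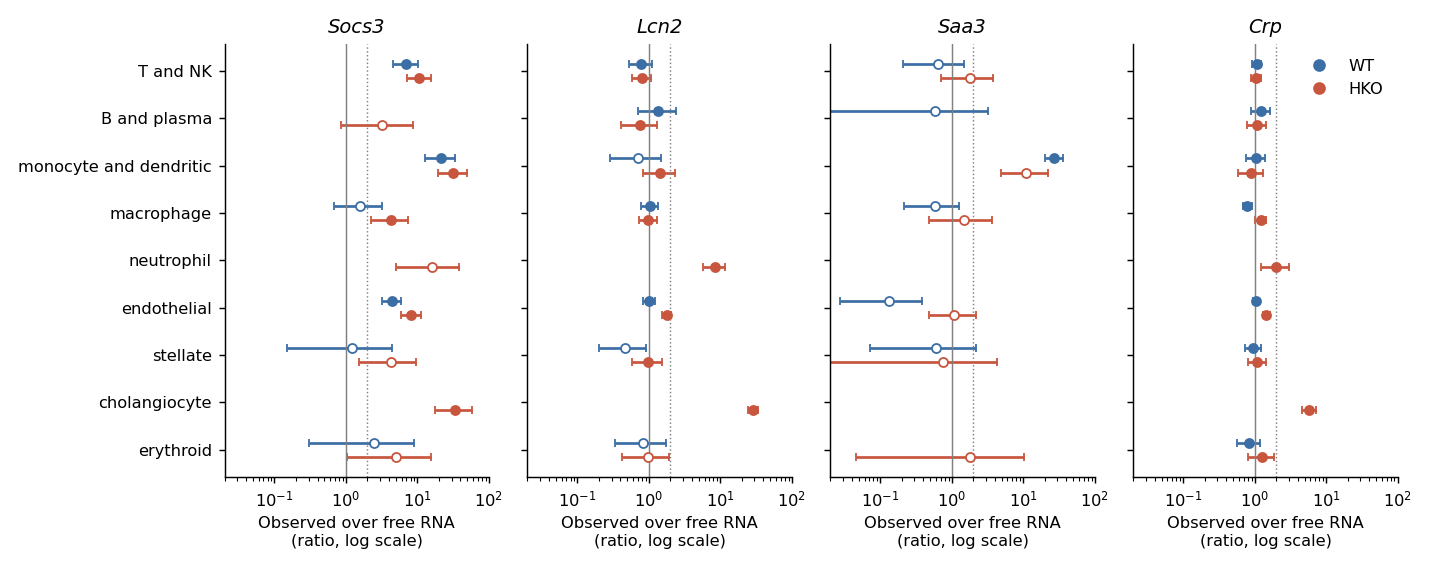
UMIs observed over those expected from free RNA (log scale) for Socs3, Lcn2, Saa3 and Crp in each cell class with at least 20 barcodes, in WT (blue) and HKO (red). The solid line marks 1 and the dotted line 2-fold, bars are 95% counting intervals, open points rest on fewer than 10 UMIs, and a class with 0 UMIs has no point. Socs3 lies right of the dotted line with at least 10 UMIs in T and NK, endothelial and monocyte and dendritic barcodes of both libraries and in macrophage and cholangiocyte barcodes of HKO, and Lcn2 and Crp do so in HKO cholangiocytes.

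Socs3 was the member most often above free RNA outside hepatocytes. In monocyte and dendritic barcodes it was at 54.1 CPM in WT (20 UMIs in 39 barcodes) and 58.0 CPM in HKO (27 UMIs in 109 barcodes), 21.3 and 31.3 times the expectation, in classes where 82.3% and 90.3% of genes passed. Endothelial barcodes had 29.3 CPM in WT and, in HKO, 49.4 CPM, 4.36 and 8.03 times the expectation (28.1% and 53.3% of genes passed). T and NK barcodes had 25.9 CPM in WT and, in HKO, 26.8 CPM, 7.01 and 10.6 times (68.4% and 83.9%). In macrophage barcodes Socs3 passed in HKO, with 15 UMIs and 4.24 times the expectation (86.2% of genes), and in WT it had 8 UMIs against 5.04 expected (44.2%). Since most genes tested pass in several of these classes, the count of members is read against those shares and passing is not particular to Socs3.

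Lcn2 was at 710 CPM in the 26 cholangiocyte barcodes of HKO (176 UMIs, 609 to 823 CPM), 28.2 times the expectation, and at 398 CPM in the 35 neutrophil barcodes of HKO (36 UMIs), 8.30 times. In these classes 94.0% and 78.6% of genes passed. Cholangiocytes line bile ducts, and both they and neutrophils are known sources of lipocalin 2. WT had only 10 cholangiocyte barcodes, with Lcn2 at 277 CPM, and 5 neutrophil barcodes, with 1 Lcn2 UMI, so no comparison of genotypes was made there. Crp also exceeded free RNA in cholangiocyte barcodes of HKO, at 355 CPM and 5.81 times the expectation, and stood at 348 CPM in those of WT. Socs3 reached 60.5 CPM in the same HKO barcodes.

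Saa3 passed in monocyte and dendritic barcodes of WT, at 141 CPM and 27.1 times the expectation, but 49 of its 52 UMIs came from 1 barcode, without which it had 1.61 times the expectation. In HKO the same class had 9 Saa3 UMIs in 5 barcodes, with at most 3 in any of them, against 0.814 expected, or 11.1 times (4.89 to 22.0), but under the minimum of 10 UMIs. No member passed in B and plasma barcodes (65.5% of genes in WT and 79.9% in HKO), in stellate barcodes (14.0% and 42.8%) or in erythroid barcodes (3.40% and 9.84%). In HKO stellate barcodes Socs3 had 6 UMIs against 1.42 expected.

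None of the 7 IL-6 family ligands and 3 IL-1 and TNF ligands that drive the response reached a mean of 10 CPM in hepatocyte barcodes. Ctf1, which encodes cardiotrophin 1, had the most UMIs of them there, at 5.88 CPM in WT and at 6.62 CPM in HKO, beside 7.34 and 3.85 CPM in free RNA. Il6 was at 0.0422 CPM in WT, 2 UMIs, and had 0 UMIs in HKO hepatocyte barcodes. In WT, 12 Il6 UMIs lay in 2 of the 5 neutrophil barcodes and 9 in 2 of the 199 macrophage barcodes. In HKO, 43 lay in 15 of 336 macrophage barcodes, where free RNA would give 0.0787, and 5 in 1 of the 35 neutrophil barcodes. Osm, which encodes oncostatin M, had 12 UMIs in endothelial, 6 in monocyte and dendritic, 4 in T and NK and 3 in neutrophil barcodes of WT. In HKO it had 14 UMIs in neutrophil, 6 in macrophage and 5 in monocyte and dendritic barcodes. Il1b was at 289 CPM in the monocyte and dendritic barcodes of WT at 67.4 CPM in its macrophage barcodes and at 2195 CPM in its 5 neutrophil barcodes, against 0.211 CPM in hepatocyte barcodes. HKO had 189 CPM of Il1b in monocyte and dendritic, 194 CPM in macrophage and 2895 CPM in neutrophil barcodes. Of the receptors, Osmr was at 59.2 CPM in WT and at 69.6 CPM in HKO endothelial barcodes, and Il6st at 378 and 478 CPM there. These classes were sorted as live nonparenchymal cells before mixing, so their numbers of barcodes are set by the preparation.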

How the data were processed

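The authors deposited raw UMI (unique molecular identifier) counts for each gene in each barcode; the matrix headers name Cell Ranger 7.1.0, the submitters' processing notes name the mouse build mm10, R and Seurat, and the annotation release and read filters are not given in the sources used here. Members and gene lists were chosen with earlier results of these data known.

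Barcodes needed at least 500 UMIs, at least 300 genes and at most 50% mitochondrial UMIs. Scrublet's automatic threshold called 0 doublets in both libraries, so the highest-scoring barcodes, in a share that grew with loading, were left out (7019 or 23.7% in WT, 2664 or 14.6% in HKO). Barcodes of both libraries were clustered without the members (2000 variable genes, 30 principal components, 15 neighbors, Leiden resolution 1; scanpy 1.11.5) and named from fixed markers; names were rebuilt here and can differ from the study's. Hepatocyte barcodes needed at least 5000 UMIs in both libraries; free RNA barcodes lay under 2 times the commonest depth of their library, that is under 5142 UMIs for WT and 1622 for HKO. Of the WT barcodes, 25 met both definitions and entered both sums, and in HKO 1958 barcodes between the limits entered neither. CPM intervals are exact Poisson, ratio intervals exact and conditional on the summed count, and shares have Clopper-Pearson intervals; intervals and floors cover counting error only. Ratios, thinning and the free RNA expectation were tested on simulated data whose counts varied by counting error only. That check does not cover spread between barcodes beyond counting. Named besides the members are list genes past 1.5-fold with a mean of at least 10 CPM, ligands and receptors, and the 5 genes most like Saa1 plus Saa2. Barcode names of WT were not analysed here, so barcodes shared between the libraries were not counted. Promoter windows come from RefSeq (8 of 10 members matched) and positions from GENCODE M21.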

Additional observations from a re-analysis of the deposited data

Results flagged for a closer look

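3 members had zonal slopes that went opposite ways in the libraries, each with a counting interval off 1; the difference between the libraries was not tested, and with 1 library per genotype it has no replicate check. The periportal over pericentral ratio of Saa1 was 0.434 in WT and 1.35 in HKO. In HKO barcodes of 20000 UMIs or more it was 0.657, on the side of WT. For Lcn2 the ratio was 0.561 in WT and 1.73 in HKO, and in WT barcodes of 5000 to 10000 UMIs it was 1.06. For Hp it was 0.785 in WT and 1.03 in HKO, and in HKO the shallowest and the deepest barcodes gave 0.937 and 0.934, below 1.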

How the results depend on the processing

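No paired analysis was possible because each genotype has 1 library. With other depth, mitochondrial, doublet, scaling and free RNA settings, the HKO over WT ratio of Hp stayed between 0.537 and 0.657 and that of Lcn2 between 1.86 and 2.31. The count of members at least 1.5-fold higher in HKO was 1 and became 2 with at least 10000 UMIs and after thinning to 5000 UMIs; the count at least 1.5-fold lower was 1 and became 2 with no depth minimum beyond 500 UMIs. Depth groups were added after seeing the data. At 5000 to 10000 UMIs, 1 member was at least 1.5-fold higher in HKO and 2 were at least 1.5-fold lower. At 10000 to 20000 UMIs, 5 were higher and 0 lower, and at 20000 UMIs or more, 4 were higher and 1, Hp, lower. The share of all genes past 1.5-fold was taken only with the settings of the Results. The counts of members under other settings therefore have no such share beside them.

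Counts of members at least 1.5-fold higher periportally in WT were 1, and 0 with the outer 10% of barcodes on each side, with a zone score from 4 genes, at 5000 to 10000 UMIs and at 10000 to 20000 UMIs. Those at least 1.5-fold higher pericentrally in WT were 5, and 1 and 2 in those depth groups, and 4 with the outer 10% and after thinning to 5000 UMIs, where the Lcn2 ratio was 0.789 and 0.757. In HKO, the count of 3 periportal members became 5 with the outer 10% of barcodes on each side, 2 at 2 times the commonest depth (Itih4 at 1.475), 4 with zones from thinned barcodes (Saa1 at 1.54), 1 at 5000 to 10000 UMIs, 5 at 10000 to 20000 UMIs and 0 at 20000 UMIs or more. The 1 at 5000 to 10000 UMIs was Crp, at 1.73, while Orm1 (1.34), Lcn2 (1.33) and Itih4 (1.41) did not pass there. The count of 2 pericentral members became 0 at 10000 to 20000 UMIs and 4 at 20000 UMIs or more. With the outer 10% it stayed 2, with Socs3 (0.653) in place of Orm2 (0.751). With the outer 10% of barcodes on each side Saa2 in HKO had a periportal over pericentral ratio of 1.65 and Lcn2 of 5.31. Lcn2 in WT turned from 0.561 to 1.06 at 5000 to 10000 UMIs. The cause of these moves was not tested, and the share of all genes was not taken at these settings. Pairs of member and class above free RNA stayed at 4 in WT and 8 in HKO, except 3 in WT without the highest barcode of each class. Genes such as Saa3 and Socs3 with few UMIs are limited by depth.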
